A study of Homo sapiens with 45 samples.

Results

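The 33 genes described here encode the glucose and lactate transporters, glycolytic enzymes, their PFKFB and PDK regulators and pentose phosphate enzymes in HCT116 cells, a line long grown from a human colon cancer. They were taken by symbol and pathway role, and PFKFB4 and H6PD were included because they were known to be low after HNRNPK knockdown. All 33 were listed among the 28278 gene names of the table of 8 libraries and in both Scramble tables, and all 33 passed the filter on low counts. RNA was measured by mRNA sequencing in 4 libraries with a nontargeting control siRNA (siNTC5), 4 with HNRNPK siRNA and 2 further nontargeting libraries named Scramble. The labels name no allele or further agent in any group; all cells were reverse transfected with RNAiMAX at 25 nM siRNA for 72 hours, so the transfection is shared by controls and knockdown. In siNTC5 and HNRNPK siRNA alike, replicates 1 and 2 were TruSeq stranded mRNA libraries and replicates 3 and 4 were Stranded mRNA Ligation libraries. Scramble libraries were TruSeq libraries of RNA purified by RNeasy in place of Maxwell. The labels do not say that replicates came from separate cultures, so p-values measure the spread between these libraries, which may be technical.

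Glycolysis splits glucose into pyruvate in the cytosol, and lactate dehydrogenase turns pyruvate into lactate when it is not burned in mitochondria. Phosphofructokinase is the main committed step, and the PFKFB enzymes make and break fructose-2,6-bisphosphate, its strongest activator. The pentose phosphate pathway branches off at glucose-6-phosphate: its oxidative arm makes NADPH, and its non-oxidative arm exchanges sugars between ribose-5-phosphate and glycolysis. Colon cancer cells are known for high glucose uptake and lactate release, and many of these genes are textbook targets of the hypoxia factor HIF1 and of MYC.

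The promoter windows of 6 members are shown because they belong to the 4 members with the lowest remaining transcript share after knockdown and to the LDHA and LDHB pair, whose members went opposite ways. Each window runs from 250 bases before to 50 bases after a RefSeq start (GRCh38.p14), 5′ to 3′ on the gene's strand, and the 300 bases are given as 1 run. Capitals mark every ACGTG, the core letters of HIF1 elements, and every GCGTG, its variant, on either strand, so that CACGT and CACGC are in capitals too. A CACGTG holds ACGTG on both strands and counts for both.
PFKFB4 (chr3:48556754-48557053, - strand): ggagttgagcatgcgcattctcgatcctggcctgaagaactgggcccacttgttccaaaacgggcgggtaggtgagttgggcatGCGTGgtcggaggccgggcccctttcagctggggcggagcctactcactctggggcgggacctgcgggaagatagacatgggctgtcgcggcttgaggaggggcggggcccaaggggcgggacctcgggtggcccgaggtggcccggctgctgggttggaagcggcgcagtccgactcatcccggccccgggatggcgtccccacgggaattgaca
H6PD (chr1:9239597-9239896, + strand): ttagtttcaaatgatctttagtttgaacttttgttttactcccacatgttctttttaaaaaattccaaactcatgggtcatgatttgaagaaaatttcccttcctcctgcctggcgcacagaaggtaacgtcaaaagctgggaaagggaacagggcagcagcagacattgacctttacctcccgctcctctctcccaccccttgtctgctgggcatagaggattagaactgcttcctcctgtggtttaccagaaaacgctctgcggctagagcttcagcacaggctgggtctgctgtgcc
ENO2 (chr12:6914330-6914629, + strand): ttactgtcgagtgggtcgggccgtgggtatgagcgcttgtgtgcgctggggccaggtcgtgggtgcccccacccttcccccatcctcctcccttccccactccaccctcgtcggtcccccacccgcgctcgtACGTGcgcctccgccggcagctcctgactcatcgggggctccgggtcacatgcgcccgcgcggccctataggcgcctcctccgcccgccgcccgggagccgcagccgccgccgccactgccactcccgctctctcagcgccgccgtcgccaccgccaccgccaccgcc
PGLS (chr19:17511399-17511698, + strand): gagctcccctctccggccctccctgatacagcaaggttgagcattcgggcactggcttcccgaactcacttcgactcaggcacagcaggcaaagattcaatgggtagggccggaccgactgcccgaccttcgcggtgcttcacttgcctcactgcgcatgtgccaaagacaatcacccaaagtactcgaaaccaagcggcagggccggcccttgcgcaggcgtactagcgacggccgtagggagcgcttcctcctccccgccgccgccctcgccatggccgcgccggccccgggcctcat
LDHA (chr11:18394313-18394612, + strand): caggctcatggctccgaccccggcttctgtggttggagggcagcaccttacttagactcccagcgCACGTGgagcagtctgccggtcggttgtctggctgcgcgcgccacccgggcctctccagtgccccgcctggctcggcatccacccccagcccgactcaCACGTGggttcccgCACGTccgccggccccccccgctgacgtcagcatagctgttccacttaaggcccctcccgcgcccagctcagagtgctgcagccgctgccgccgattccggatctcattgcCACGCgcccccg
LDHB (chr12:21657793-21658092, - strand): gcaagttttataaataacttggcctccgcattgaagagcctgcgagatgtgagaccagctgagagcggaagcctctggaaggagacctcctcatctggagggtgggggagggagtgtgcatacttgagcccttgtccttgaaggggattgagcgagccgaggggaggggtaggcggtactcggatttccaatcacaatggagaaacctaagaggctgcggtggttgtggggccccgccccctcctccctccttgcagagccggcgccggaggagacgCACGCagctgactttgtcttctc

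The PFKFB4 window holds a single GCGTG, at position -166 from the start, and the ENO2 window a single ACGTG, at position -118. The H6PD and PGLS windows hold neither. The H6PD window lies inside the gene's span (bases 9234774 to 9271337), as does the PFKFB4 window (span of bases 48517684 to 48563136). The outermost 5′ end of H6PD and of PFKFB4 has no listed window, so its motifs are not described here. The LDHA window shown holds 6 matches and the LDHB window 1, at position 28. LDHA has a second listed window (chr11:18396101-18396400), not shown, which holds 1 match, at position -123. RefSeq listed 57 windows for 31 members; SLC2A3 and PFKFB2 had none. ACGTG was found in 21 of the 57 windows, 36.8%, against 21.4% of all 35116 windows of this length. GCGTG was found in 38.6% of member windows against 36.5% of all, and the E-box CACGTG in 10.5% against 7.26%. CCCTCCC, a C-rich run of the kind that hnRNP K binds in single strands, was found in 43.9% against 26.6%. Counted once per gene, with a match in any window, CCCTCCC was found for 51.6% of the 31 members and 39.6% of 10620 tested genes. By the same count ACGTG was found for 54.8% against 31.8%, GCGTG for 58.1% against 57.7% and CACGTG for 19.4% against 12.3%. Member windows had a median GC content of 68% and all windows one of 58.7%, and windows of 1 gene overlap in part. The part of base composition in these shares was not tested, and a match says nothing about binding.

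The siRNA target stood first as the check of the labels. HNRNPK, which encodes a nuclear RNA-binding and C-rich DNA-binding protein, lay between 814 and 967 CPM (a normalised read count, relative to library size with TMM factors) in siNTC5 and between 157 and 250 in the knockdown, 22.4% of control. Library totals ran from 12107280 to 23633851 counts in the 8 libraries and were 59209169 and 55007171 in Scramble. Of the colon and epithelial markers, KRT8, KRT18, KRT19, EPCAM and CDH1 were abundant and CDX2 was at 12.1 CPM in siNTC5, while VIL1, LGALS4 and CEACAM5 were at or near 0. The summed level of these 9 markers was 2700 to 3110 CPM in siNTC5 and 4400 to 5440 CPM in the knockdown; 4 of the 6 tested rose and KRT19 fell. The 5 fibroblast markers summed to 44.6 to 73.3 and 75.4 to 122 CPM, nearly all of it COL1A1, with COL1A2 and DCN at 0 in siNTC5. The 5 immune markers summed to 17.7 to 24.4 and 22.1 to 27.4 CPM, nearly all of it CD68, with CD3E at 0 in all 8 libraries. Endothelial markers summed to 0.821 to 1.33 CPM in siNTC5 and 1.93 to 3.69 CPM in the knockdown; of these VWF alone was tested, and it rose, with a log2 fold change of 1.49 (edgeR adjusted p = 0.000372). Muscle markers summed to 6.46 to 13.2 and 5.5 to 8.6 CPM, and neural markers to 2.02 to 2.76 and 2.24 to 3.29 CPM. Of the tested fibroblast, immune, muscle and neural markers, COL1A1 (log2 fold change 0.69) and CKM (1.02) rose and DES (-0.71) fell. PDGFRB, CD68, SNAP25 and RBFOX3 did not pass. VWF and CKM lay near the floor, at 0.626 and 0.754 CPM in siNTC5. The part of these markers in the results below was not tested, and in bulk RNA fewer cells of a kind and less RNA per cell cannot be told apart.

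After HNRNPK knockdown most glycolytic and pentose phosphate transcripts were lower, from the lactate exporter SLC16A3 through the hexokinases, phosphofructokinases, aldolases and enolases to lactate dehydrogenase A. Transcripts of 4 members, SLC2A3, PFKFB2, LDHB and RPIA, were higher, and BPGM and RPE did not pass the test. In edgeR's quasi-likelihood test with library kit in the model and Benjamini-Hochberg adjustment over 13933 genes, 31 of the 33 members had an adjusted p under 0.05, 27 lower and 4 higher. Over all tested genes the same rule called 71.5%, with 36.1% lower and 35.5% higher. PFKFB4 and H6PD were chosen by their values in this very contrast, so they are described without a test; among the other 31 members 25 fell and 4 rose. Among these 31, the knockdown libraries all lay below every siNTC5 library for 24 members, which holds for 28.0% of all tested genes. For 3 members, PFKFB2, LDHB and RPIA, they all lay above every control, which holds for 28.5% of all tested genes. The median log2 fold change of the 31 was -0.54 and that of all tested genes -0.004. At least 1 lower on the log2 scale with an adjusted p under 0.05 were 9 of the 31, a class that held 8.28% of all genes: SLC16A3, HK1, PFKL, PFKP, ALDOA, ALDOC, ENO2, PDK3 and PGLS. ALDOA is included in these counts, though its reads in the 8 libraries were very few beside those in Scramble, as described below. Counts of the 33 genes made up 2.32% to 2.46% of a siNTC5 library and 1.58% to 1.78% of a knockdown library.

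**Figure D1:**
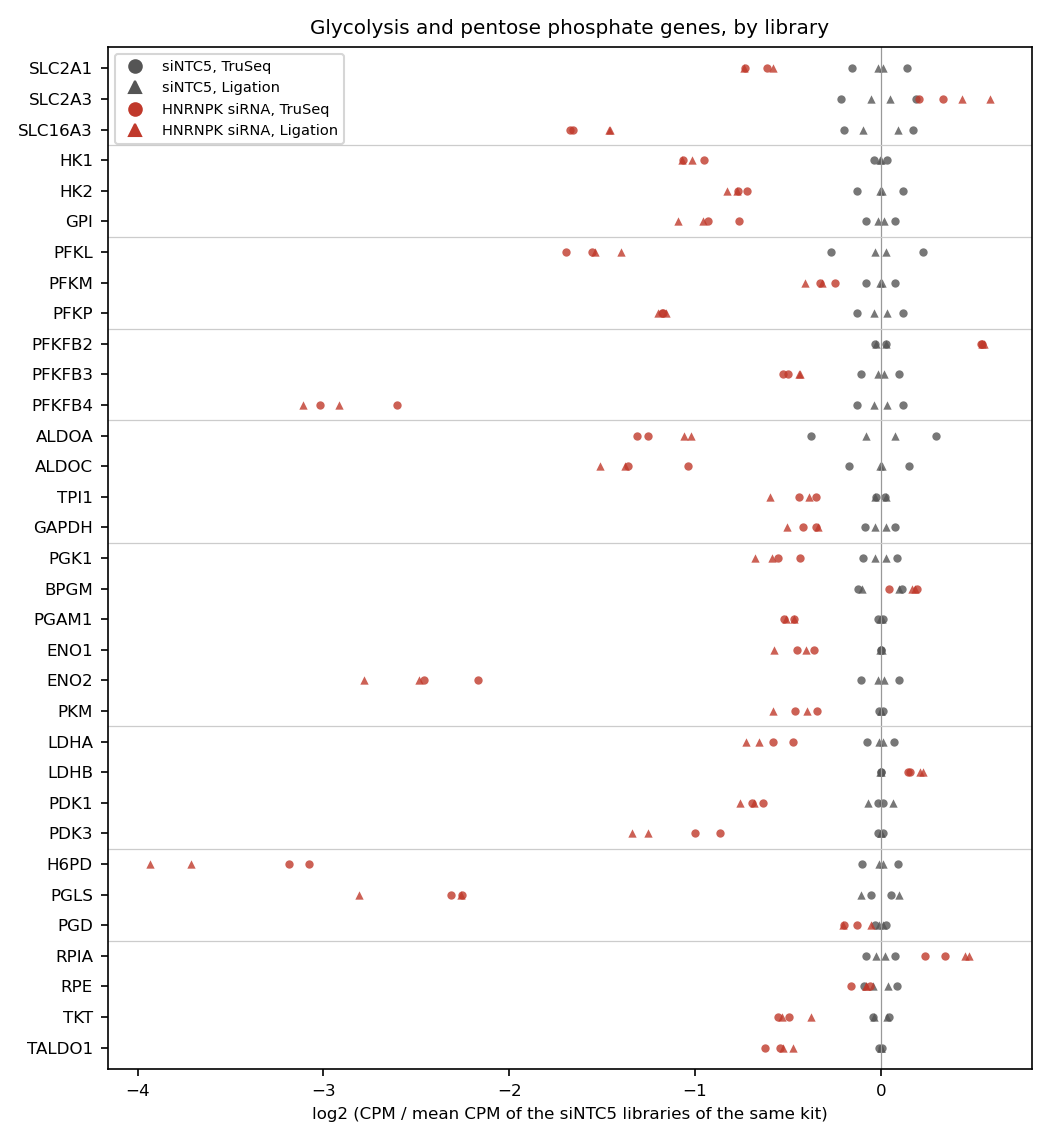
Each point is 1 library, placed by the log2 ratio of its CPM to the mean of the siNTC5 libraries of the same kit; the 33 members are in pathway order, with lines between roles. Knockdown points lie farthest left for H6PD, PFKFB4, ENO2 and PGLS, and right of 0 in all 4 knockdown libraries for SLC2A3, PFKFB2, LDHB, RPIA and BPGM.

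Among the transporters, the lactate exporter and one glucose importer fell while the other importer rose. SLC16A3, the lactate exporter MCT4 (chromosome 17, bases 82217934 to 82240086), was at 247, 191, 293 and 258 CPM in siNTC5 replicates 1 to 4 and at 68.9, 69.6, 100.0 and 100.4 CPM in the knockdown. Every knockdown library was below every control, and the log2 fold change was -1.56 ± 0.07 (SE, n = 4 against 4; edgeR adjusted p = 1.04e-12). SLC2A1, the basal glucose transporter GLUT1, fell to 63.2% of control with a log2 fold change of -0.66. SLC2A3, the high-affinity transporter GLUT3, was at 38.7, 29.2, 40.6 and 37.9 CPM in siNTC5 and at 39.1, 42.9, 53.2 and 59.0 CPM in the knockdown. Its first knockdown library lay within the control range and the other 3 lay above it. The log2 fold change was 0.40 ± 0.08 (SE; edgeR adjusted p = 0.000309), but within the TruSeq libraries alone it was 0.29 with an adjusted p of 0.0688.

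The hexokinases, which trap glucose as glucose-6-phosphate, and GPI, which isomerises it, all fell. HK1 was at 174, 166, 217 and 217 CPM in siNTC5 and at 87.9, 81.2, 103 and 107 CPM in the knockdown. The groups did not overlap, and its log2 fold change was -1.02 ± 0.04 (SE; edgeR adjusted p = 5.97e-13). HK2, the inducible hexokinase of tumours, fell to 58.6% of control and GPI to 52.5%, each below the controls in 4 of 4 knockdown libraries.

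All 3 phosphofructokinase subunits fell, the liver and platelet types more than the muscle type. PFKL (chromosome 21, bases 44300053 to 44327373) was at 153, 109, 186 and 178 CPM in siNTC5 and at 44.5, 40.5, 62.6 and 69.0 CPM in the knockdown. Its TruSeq libraries were lower than its Ligation libraries in both groups, yet the groups did not overlap; the log2 fold change was -1.54 ± 0.08 (SE; edgeR adjusted p = 1.04e-11). PFKP was at 409, 345, 465 and 443 CPM in siNTC5 and at 168, 166, 204 and 198 CPM in the knockdown, again with no overlap, and its log2 fold change was -1.18 ± 0.05 (SE; edgeR adjusted p = 4.04e-13). PFKM fell to 80.0% of control, a log2 fold change of -0.32.

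The PFKFB regulators went apart. PFKFB4, the isoenzyme that hypoxia and mitogens induce (chromosome 3, bases 48517684 to 48563136), was at 138, 116, 124 and 129.9 CPM in siNTC5 and at 20.9, 15.7, 14.7 and 16.8 CPM in the knockdown. Every knockdown library was far below every control, at 13.4% of the control mean, a log2 fold change of -2.89. It was at 14.4% within TruSeq libraries and at 12.4% within Ligation libraries. PFKFB3, the isoenzyme with the highest kinase to phosphatase activity, fell to 72.0% of control, with 98.4, 85.4, 91.1 and 88.9 CPM in siNTC5 and 63.9, 65.0, 66.4 and 66.5 CPM in the knockdown. PFKFB2, the heart isoenzyme, rose, from 40.0, 41.6, 36.4 and 35.1 CPM to 59.4, 59.5, 52.4 and 52.1 CPM. The PFKFB2 groups did not overlap, and the log2 fold change was 0.54 ± 0.06 (SE; edgeR adjusted p = 6.65e-08).

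**Figure D2:**
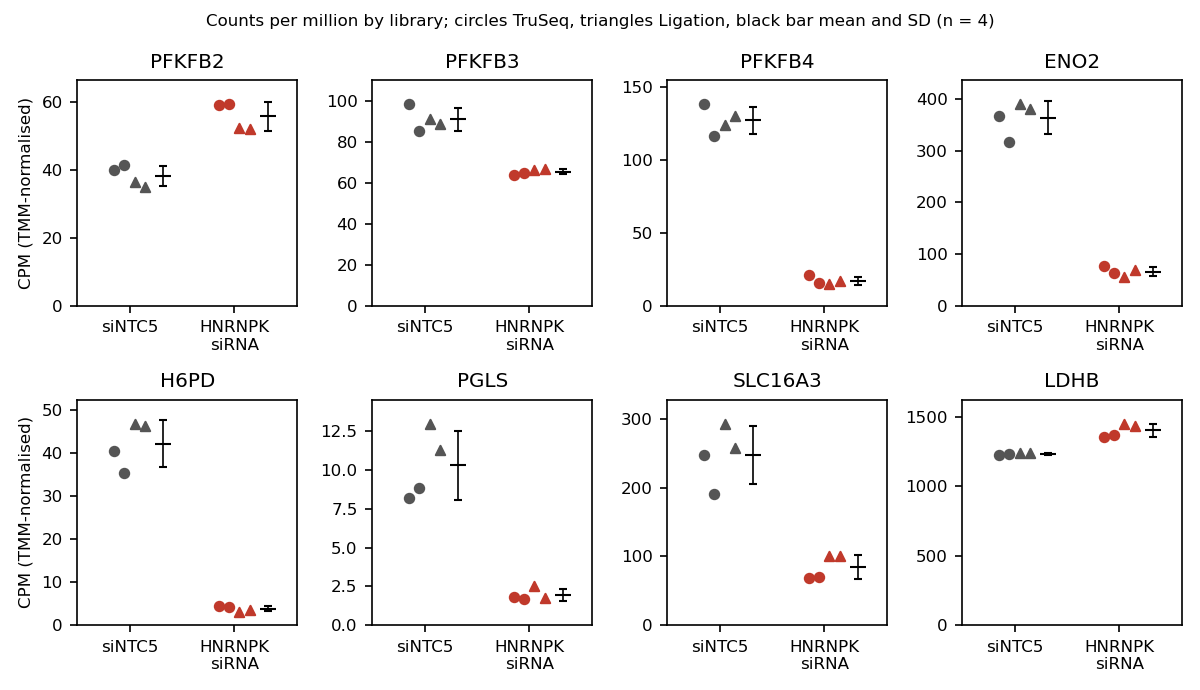
CPM on a linear axis from 0 for 8 members; points are single libraries, circles TruSeq and triangles Ligation, and the black bar is the mean with its SD over 4 libraries. The knockdown means are 17.0 CPM for PFKFB4, 65.9 for ENO2, 3.81 for H6PD and 1.94 for PGLS, while PFKFB2 and LDHB lie above their controls.

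From aldolase to GAPDH all 4 members fell. ALDOC, the brain-type aldolase, was at 214, 171, 225 and 223 CPM in siNTC5 and at 94.0, 75.0, 78.7 and 86.2 CPM in the knockdown, a log2 fold change of -1.31 ± 0.08 (SE; edgeR adjusted p = 2.98e-11) with no overlap. ALDOA, the muscle-type aldolase (chromosome 16, bases 30064279 to 30070420), was at 66.9, 41.9, 94.3 and 84.7 CPM in siNTC5 and at 22.8, 21.9, 44.1 and 42.9 CPM in the knockdown. The groups overlapped, since the Ligation knockdown libraries reached the lowest TruSeq control; within each kit the knockdown was lower, at 41.1% and 48.6% of control. The ALDOA log2 fold change was -1.15 ± 0.11 (SE; edgeR adjusted p = 1.75e-08). It rests on 1004 to 1547 counts per siNTC5 library and 295 to 523 per knockdown library, where the Scramble libraries had 198498 and 198337. Whether such low counts stand for the whole transcript was not tested, so this fall is given with that limit. TPI1, which interconverts the triose phosphates, fell to 73.8% of control and GAPDH, the oxidising step, to 75.7%.

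In lower glycolysis the abundant enzymes PGK1, PGAM1, ENO1 and PKM fell by similar amounts, with log2 fold changes from -0.56 to -0.44. PKM, pyruvate kinase, was at 2693, 2658, 2689 and 2684 CPM in siNTC5 and at 2112, 1944, 1794 and 2036 CPM in the knockdown; gene counts do not separate its M1 and M2 splice forms. ENO2, the neuron-type enolase (chromosome 12, bases 6914580 to 6923697), was at 367, 318, 391 and 382 CPM in siNTC5 and at 76.2, 62.3, 56.2 and 69.0 CPM in the knockdown. The ENO2 groups stood far apart, with a log2 fold change of -2.46 ± 0.08 (SE; edgeR adjusted p = 1.05e-14). BPGM, which makes 2,3-bisphosphoglycerate, was at 15.3 ± 1.34 CPM (SD, n = 4) in siNTC5 and at 16.9 ± 0.77 CPM (SD, n = 4) in the knockdown and did not pass the test (log2 fold change 0.14, edgeR adjusted p = 0.17). Several of these enzymes, GAPDH, PGAM1, ENO1, LDHA and TPI1 among them, have processed pseudogenes in the genome, and how reads shared with such copies were counted is not given in the sources used here.

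Of the lactate dehydrogenases, the muscle-type subunit fell and the heart-type subunit rose. LDHA, which favours lactate formation, was at 1179, 1063, 1262 and 1242 CPM in siNTC5 and at 807, 749, 758 and 794 CPM in the knockdown, a log2 fold change of -0.61 ± 0.05 (SE; edgeR adjusted p = 1.56e-09). LDHB, which favours pyruvate formation, was at 1227, 1229, 1241 and 1236 CPM in siNTC5 and at 1357, 1371, 1450 and 1434 CPM in the knockdown, all above the controls. Its rise was small, 0.19 ± 0.04 (SE) on the log2 scale (edgeR adjusted p = 0.000196). PDK1 and PDK3, kinases that switch off pyruvate dehydrogenase, both fell. PDK3 was at 66.4, 65.2, 72.4 and 72.5 CPM in siNTC5 and at 36.1, 32.8, 30.4 and 28.7 CPM in the knockdown, a log2 fold change of -1.10 ± 0.07 (SE; edgeR adjusted p = 1.31e-10), and PDK1 fell to 61.9% of control.

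In the oxidative arm of the pentose phosphate pathway, the enzyme of the endoplasmic reticulum and the lactonase were lowest relative to control. H6PD, the hexose-6-phosphate dehydrogenase of the endoplasmic reticulum lumen (chromosome 1, bases 9234774 to 9271337), was at 40.4, 35.3, 46.8 and 46.1 CPM in siNTC5 and at 4.48, 4.16, 3.04 and 3.54 CPM in the knockdown. All knockdown libraries lay far under the controls, at 9.03% of the control mean and a log2 fold change of -3.44. The counts behind these values were 681 to 844 in siNTC5 and 36 to 68 in the knockdown. PGLS, the 6-phosphogluconolactonase (chromosome 19, bases 17511649 to 17521288), was at 8.18, 8.81, 13.0 and 11.3 CPM in siNTC5 and at 1.78, 1.71, 2.53 and 1.73 CPM in the knockdown. The groups did not overlap, and the log2 fold change was -2.40 ± 0.15 (SE; edgeR adjusted p = 1.01e-10), on 21 to 30 counts per knockdown library. PGD, which makes the second NADPH of the cytosolic arm, fell only to 90.5% of control (log2 fold change -0.14, edgeR adjusted p = 0.00609).

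The non-oxidative arm was divided. RPIA, which makes ribose-5-phosphate, was at 67.9, 75.8, 64.5 and 62.3 CPM in siNTC5 and at 91.4, 84.6, 86.9 and 88.1 CPM in the knockdown. All 4 knockdown libraries were above every control, a log2 fold change of 0.38 ± 0.06 (SE; edgeR adjusted p = 8.14e-06). TKT and TALDO1, transketolase and transaldolase, fell to 71.5% and 68.7% of control. RPE, the epimerase, was at 79.7 ± 4.84 CPM (SD, n = 4) and 74.7 ± 2.41 CPM (SD, n = 4) and did not pass the test (log2 fold change -0.10, edgeR adjusted p = 0.117).

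Ratios between isoenzymes within a library need no scaling between libraries, and their changes show how the members moved against one another. As log2 ratios of raw counts they also hold the genes' lengths, so only their difference between groups is read, as a description with no test. PFKFB3 over PFKFB4 was -0.48 ± 0.05 (SD, n = 4) in siNTC5 and 1.96 ± 0.24 (SD, n = 4) in the knockdown, with no overlap, and PFKFB2 over PFKFB4 was 3.46 higher in the knockdown on the log2 scale. PFKFB4 was chosen by its fall in these same libraries, so the shift of both ratios follows in large part from that choice. ENO2 over ENO1 was -3.53 ± 0.15 (SD, n = 4) in siNTC5 and -5.56 ± 0.10 (SD, n = 4) in the knockdown. The ratio of LDHB to LDHA was 0.06 ± 0.11 (SD, n = 4) in siNTC5 and 0.85 ± 0.08 (SD, n = 4) in the knockdown, again with no overlap. SLC2A3 over SLC2A1 was 1.06 higher and PFKM over PFKL 1.21 higher in the knockdown, on the log2 scale and without overlap. The ratios HK2 to HK1 and PFKP to PFKL overlapped between the groups over both kits, while within each kit every knockdown library was above every siNTC5 library. ALDOC to ALDOA overlapped within TruSeq libraries and was lower in the knockdown within Ligation libraries. PDK3 to PDK1 differed by -0.42, with every knockdown library below every siNTC5 library. In Scramble, PFKFB3 over PFKFB4 was 0.40 and 0.09, above every siNTC5 library as the knockdown was, and PDK3 over PDK1 was -0.29 and -0.62, below every siNTC5 library as the knockdown was. PFKM over PFKL was 0.08 in both Scramble libraries and LDHB over LDHA was -1.09 and -1.19, below every siNTC5 library, where the knockdown was above.

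**Figure D3:**
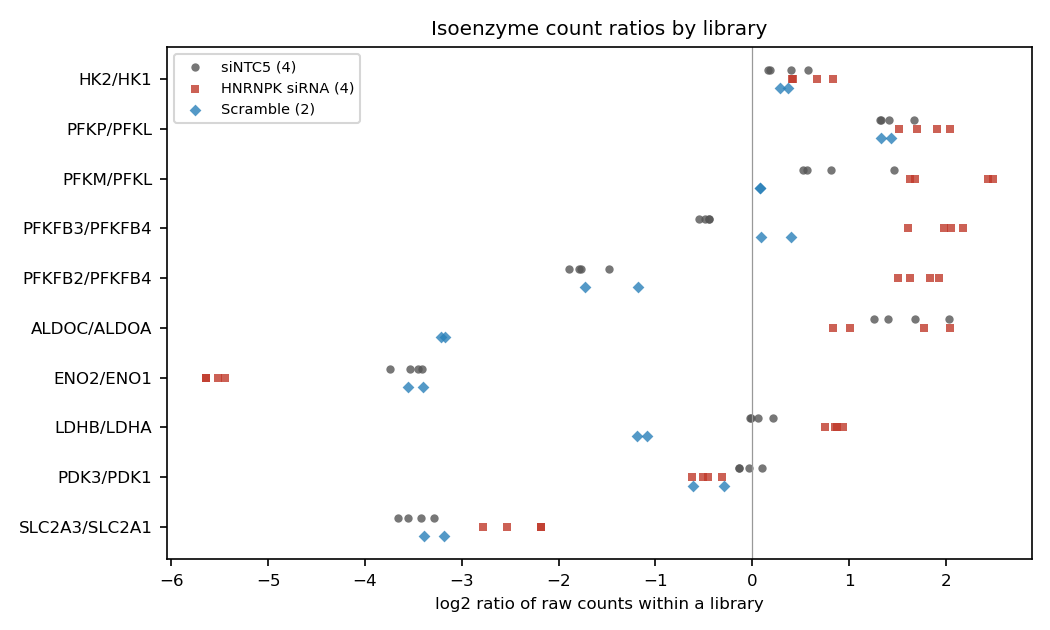
The horizontal axis gives the log2 ratio of raw counts of 2 isoenzymes within a library, with 1 point per library for siNTC5, HNRNPK siRNA and Scramble. The knockdown points lie right of the siNTC5 points for the PFKFB, LDHB/LDHA, SLC2A3/SLC2A1 and PFKM/PFKL pairs. They lie left of the siNTC5 points for ENO2/ENO1 and PDK3/PDK1. PFKFB4 was chosen by its fall in these libraries, so the knockdown shift of the PFKFB pairs follows in large part from that choice. Both Scramble points lie outside the siNTC5 range to the right for PFKFB3/PFKFB4 and to the left for PFKM/PFKL, ALDOC/ALDOA, LDHB/LDHA and PDK3/PDK1. ALDOA levels of Scramble and of the other 8 libraries should not be set against each other, so the Scramble points of ALDOC/ALDOA are not read.

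An interaction term, which the choice of members did not use, asked if kit altered the response to the siRNA. In edgeR 0 of the 33 members passed, against 0.129% of all tested genes; 3 members, ENO2, PDK3 and H6PD, and 1639 of all genes had an unadjusted p under 0.05, and the Wald test of DESeq2 called 0 of the 30 members to which it gave an adjusted p. The H6PD interaction was -0.70 ± 0.22 (SE; edgeR adjusted p = 0.215) on the log2 scale for Ligation minus TruSeq, with 7.08% of control left in Ligation and 11.4% in TruSeq libraries. The PDK3 interaction was -0.36 ± 0.11 (SE; edgeR adjusted p = 0.204) and that of ENO2 -0.32 ± 0.13 (SE; edgeR adjusted p = 0.345). This count moved when single controls were left out: without siNTC5 replicate 1, 6 members passed (LDHA, GPI, ENO2, H6PD, ALDOC and PGK1, all with a more negative response in Ligation), and without siNTC5 replicate 2, 4 members passed (SLC16A3, ALDOA, PFKL and SLC2A3, all with a less negative or more positive one), with 1 library left in that arm, assumed to vary like the others. Levels themselves differed with kit in 12 members, 8 higher and 4 lower in Ligation than in TruSeq libraries, against 28.5% of all genes called in either direction. ALDOA differed most, by 0.82 ± 0.10 (SE; edgeR adjusted p = 2.86e-05) on the log2 scale, then PFKL by 0.54 and PGLS by 0.45. Kit and replicate round cannot be told apart.

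The Scramble libraries gave a second nontargeting control, which differed from siNTC5 in RNA purification and count table too, so those sources cannot be told apart. In a fit of all 10 libraries on the shared gene names, 28 members differed between Scramble and siNTC5, 21 higher and 7 lower in Scramble, where 37.5% of all 14642 tested genes were called higher and 31.8% lower. Without PFKFB4, H6PD and ALDOA these were 19 higher and 6 lower of 30. The median log2 difference of the members was 0.39 against 0.04 for all genes. Counts of the members made up 3.01% and 3.20% of the 2 Scramble libraries, or 2.68% and 2.84% without ALDOA.

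ALDOA stood apart from all other members between the tables. It had 1004 to 1547 counts in the siNTC5 libraries and 198498 and 198337 in the Scramble libraries, 3975 and 4300 CPM after TMM scaling in the fit of 10 libraries, 76.2 times the mean of the TruSeq siNTC5 libraries. RefSeq places another gene, LOC112694756 (chromosome 16, bases 30053151 to 30070414), over nearly all of ALDOA; it is listed in the table of 8 libraries, with 12 to 43 counts, and not in the Scramble tables. The part of this overlap in the low ALDOA counts was not tested, and the ALDOA level of either table should not be set against the other. A like gap was seen for other pathway genes: SLC16A1, the lactate transporter MCT1, had 0 to 6 counts in the 8 libraries and 13588 and 11756 in Scramble, and PCK2 had 0 in all 8 libraries and 8894 and 7057 in Scramble. SLC16A1 and PCK2 could not be tested for the knockdown. Other genes of the lists went the other way. HNRNPA1, a factor of PKM exon choice, had 28534 to 42611 counts in siNTC5 and 4538 and 4460 in Scramble. GAPDHS had 180 to 401 counts in siNTC5 and 88 and 119 in Scramble.

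Apart from ALDOA, the members with the largest Scramble excess were GPI, LDHA, ALDOC, H6PD, SLC16A3, PGLS and SLC2A3. GPI was at 2362 and 2436 CPM in Scramble and at 816 ± 37.3 CPM (SD, n = 4) in siNTC5, and LDHA at 2477 and 2745 CPM against 1189 ± 93.3 CPM (SD, n = 4). H6PD was at 92.0 and 79.9 CPM in Scramble against 42.3 ± 5.57 CPM (SD, n = 4), above every siNTC5 library. PFKFB4 went the other way, at 86.2 and 103 CPM in Scramble against 127 ± 9.11 CPM (SD, n = 4) in siNTC5. The Scramble mean was 2.92 times the TruSeq siNTC5 mean for GPI and 2.33 times for LDHA, while the knockdown stood at 52.5% and 65.5% of siNTC5.

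Against Scramble, the knockdown was lower for 23 of the 31 members other than PFKFB4 and H6PD and higher for 3, PFKFB2, LDHB and RPIA, where 42.4% of all genes were called lower and 38.8% higher. Without ALDOA as well, 22 of 30 were lower. This comparison shares its knockdown libraries with the one against siNTC5, so the values are given side by side only. PFKFB4 was -2.89 against siNTC5 and -2.44 against Scramble on the log2 scale, H6PD -3.44 and -4.57, ENO2 -2.46 and -2.82, and PGLS -2.40 and -3.50. SLC2A3 changed sign, from 0.40 against siNTC5 to -0.67 ± 0.11 (SE; edgeR adjusted p = 1.74e-05) against Scramble, where its libraries were at 61.4 and 73.7 CPM. PFKM, PGAM1 and PGD, which fell against siNTC5, were at -0.09, -0.11 and -0.09 against Scramble and did not pass (edgeR adjusted p = 0.174, 0.0522 and 0.141). For PGAM1 this value has a limit. The related gene PGAM4 had 1 to 6 counts in siNTC5, 0 to 2 in the knockdown and 3594 and 3452 in Scramble. PGAM1 had 13036 and 13185 counts in Scramble, and how reads were divided between PGAM1 and PGAM4 was not tested. LDHB was 0.19 higher against siNTC5 and 0.22 higher against Scramble, and PFKFB2 was 0.54 and 0.78 higher.

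**Figure D4:**
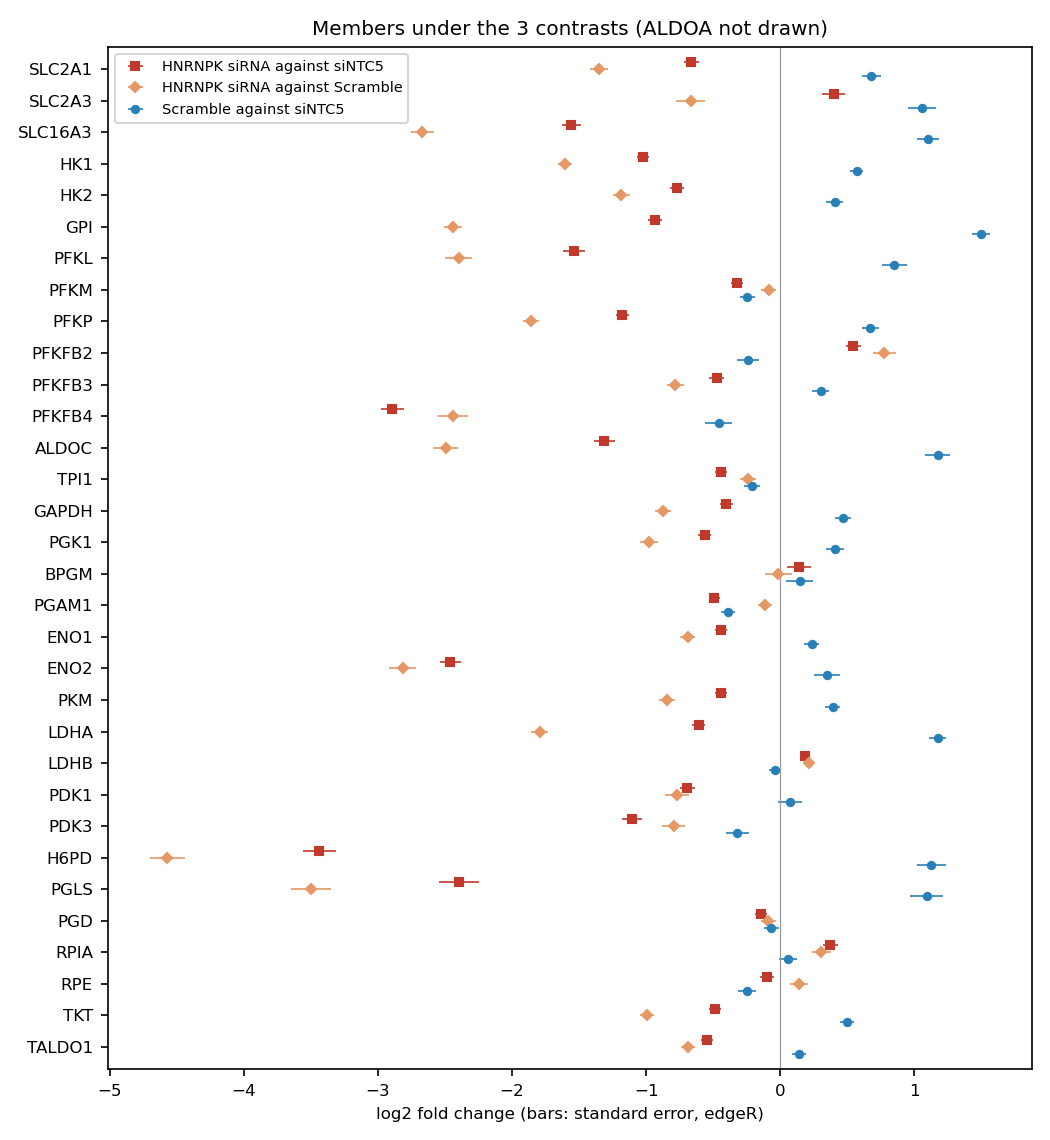
Log2 fold changes of 32 members with the standard error of edgeR as bars, for HNRNPK siRNA against siNTC5, HNRNPK siRNA against Scramble and Scramble against siNTC5; the contrasts share libraries. ALDOA, at 6.31 for Scramble against siNTC5, is not drawn. For ENO2, PFKFB4, H6PD and PGLS both knockdown contrasts lie far left of 0, while SLC2A3 has its knockdown contrasts on either side of 0.

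Chromatin of the same cells was described by 7 deposited domain lists, 1 per antibody and siRNA, so these values have no replicates and no test. Lamin B1 marks the nuclear lamina, H3K9me2 and H3K9me3 mark heterochromatin and H3K27me3 is the Polycomb mark. At least 50% of the gene body lay in a control lamin B1 domain for 0 of the 33 members and for 2.96% of the 13482 tested genes with a position. In the knockdown lamin B1 list 2 members qualified, SLC16A3 with 100% and TPI1 with 73.1% of the gene body, where 2.57% of tested genes did. PDK1 lay in an H3K9me3 domain in both lists (67.4% and 100% of the body), and RPIA in the knockdown list alone (100%); the 2 lists held 2.94% and 5.9% of tested genes. H3K27me3 domains covered PFKL and PGK1 wholly in the control list and not in the knockdown list, and BPGM in both (55.1% and 100%). The control H3K27me3 list thus held 3 of the 33 members and 9.83% of tested genes, and the knockdown list 1 member and 8.4% of tested genes. PFKFB4, H6PD, ENO2 and PGLS lay in no domain of any of the 7 lists, and the same held for most members. Any overlap of the gene body was found for 0 to 4 members and for 1.6% to 14.9% of tested genes, depending on the list.

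Other genes of sugar metabolism, from lists taken for this purpose, were counted in the same knockdown fit. Of 17 tested further glycolysis genes 7 fell, 6 rose and 4 did not pass, with PGM1 (phosphoglucomutase, -1.26), LDHD (D-lactate dehydrogenase, -1.65) and PFKFB1 (-1.21) lower by at least 1 on the log2 scale. LDHD and PFKFB1 had few reads, 4 to 21 and 2 to 12 counts per knockdown library. Of 9 further pentose phosphate genes 7 fell, 1 rose and 1 did not pass; SHPK, the sedoheptulose kinase, was at -1.47. Of 13 pyruvate entry genes 6 fell and 3 rose, with PC, pyruvate carboxylase, at -1.90. Of 12 gluconeogenesis and glycogen genes 7 fell and 1 rose. The glycogen synthase GYS1 went from 125.6 ± 5.60 to 19.2 ± 4.42 CPM (SD, n = 4; log2 fold change -2.71, edgeR adjusted p = 3.81e-14), and the phosphorylases PYGB and PYGL were at -1.24 and -1.31. Of 16 genes of fructose, mannose, galactose and hexosamine entry 12 fell and 3 rose, with GALK1 (galactokinase, -2.30), KHK (ketohexokinase, -1.87), MPI (-1.58), GFPT2 (-1.23) and SORD (-1.08) lowest. KHK had 15 to 29 counts per knockdown library. Of 15 regulators of glycolytic transcription 7 fell and 3 rose; the HIF prolyl hydroxylase EGLN3 was at -1.72 and the glucose-responsive factor MLXIPL at -1.07. Of 6 factors of PKM exon choice 1 fell and 2 rose, none of them by 1 or more. The share of all genes called lower, 36.1%, and higher, 35.5%, is the measure beside these counts.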

How the data were processed

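RNA counts are raw whole-number counts per gene symbol, which the authors deposited as 1 table of 8 libraries and 2 Scramble tables. Per the submitters' processing notes they come from STAR 2.7.1a and featureCounts (Subread 2.0.6 for the 8 libraries), with hg38 named for the 8 libraries and hg19 and hg38 for Scramble. Annotation, strand and overlap handling are not given in the sources used here. The deposited domain lists carry a score per domain whose unit and caller are not given in the sources used here; it is not reported. Counts were filtered (filterByExpr by treatment), TMM-normalised and tested with edgeR 4.0.16 (limma 3.58.1, R 4.3.3), with kit and treatment in the model, Benjamini-Hochberg adjustment over all tested genes and a threshold of 0.05. A standard error is the absolute log2 fold change over the root of the F statistic. The 2 Scramble libraries entered a separate fit of 10 libraries on 25527 shared names.

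The members and lists were chosen with earlier results of these data known. All 33 members are named; values in every library are given for PFKFB4, H6PD, members that moved by 1 or more on the log2 scale and at least 1 member of each role. List genes are named where the adjusted p was under 0.05 and the log2 change at least 1. Values of PFKM, PGAM1, SLC16A1, PCK2 and the others outside that rule were picked after they were seen. Same-numbered libraries of the 2 groups deviated together (r across genes 0.152, 0.531, 0.442 and 0.362), and after the kit effect was removed they did not (-0.201, -0.15, -0.308 and -0.271); a fit with the replicate number as block was run. DESeq2 1.42.0 served as an alternative. On simulated data for the knockdown comparison, with 13929 genes of which 200 were changed 2-fold, 187 of these and 8 unchanged genes were called. The simulated counts had the same setting of the spread for every gene and no kit effect. In the real comparison 71.5% of genes were called, so the simulated error rates may not hold there. Gene positions and promoter windows are those of RefSeq (GRCh38.p14).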

Additional observations from a re-analysis of the deposited data

Results flagged for a closer look

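In the 66 groups of 4 libraries (33 members in siNTC5 and in HNRNPK siRNA), 2 had a library far from the others by Dixon's test, where chance gives about 1 in 20. PFKM was at 299.7 CPM in siNTC5 replicate 2, and its other 3 controls were between 265 and 269.6 CPM; the gap was 0.858 of the range. PGLS was at 2.53 CPM in HNRNPK siRNA replicate 3, and the other 3 knockdown libraries were between 1.71 and 1.78 CPM, a gap of 0.912 of the range.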

How the results depend on the processing

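The count of 31 members called in the knockdown comparison was 28 to 32 over all alternatives tried, 31 with DESeq2 size factors, upper-quartile scaling, the DESeq2 test and no kit term, and no member reversed. These counts, and that of the paired fit, include PFKFB4 and H6PD, which were chosen by their fall in this contrast. Without PFKFB4 and H6PD the main fit called 29 of 31 members. With the replicate block in place of kit, the paired fit called 31 members (4 higher, 27 lower), and the block changed no other count of members. With Scramble added to the controls, 28 were called: SLC2A3 was 0.05 (adjusted p = 0.891, edgeR), ALDOA -3.97 (adjusted p = 0.146) and PGD -0.12 (adjusted p = 0.0673), and further glycolysis and pentose phosphate genes gave 7 and 4 calls in place of 13 and 8. In Ligation libraries alone 5 of the 6 PKM exon choice factors were called (4 higher, 1 lower) in place of 3. RPE passed without a filter (-0.13, adjusted p = 0.0449) and without siNTC5 replicate 1 (-0.13, adjusted p = 0.0313). H6PD was -3.12 in TruSeq and -3.82 in Ligation libraries alone. The interaction count of 0 became 1 (ENO2) with no filter and ran from 0 to 6 when each library was left out. Upper-quartile scaling moved the median of all genes from 0.04 to -0.10 for Scramble against siNTC5, with 18 members higher and 9 lower, and from -0.04 to 0.15 for the knockdown against Scramble. ENO2, ENO1, TALDO1 and PFKFB2 lost their Scramble against siNTC5 call under 1 or more alternatives. PFKM, TPI1, PGLS and PFKFB2 lost their Ligation against TruSeq call under 1 or more alternatives. TPI1 also lost its call for the knockdown against Scramble under upper-quartile scaling (-0.06, adjusted p = 0.399, edgeR). Counting any overlap of the gene body, 2 members lay in the knockdown H3K27me3 list in place of 1. Depth limits PGLS and H6PD most, with 21 to 30 and 36 to 68 counts per knockdown library, and domain values have no replicates.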
